A study of Mus musculus with 5 samples.

Results

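Genes whose names start with Rnf or Trim followed by a digit encode RING finger and tripartite motif proteins, and 144 such names, with Rnf8 and Rnf17 set aside, were taken from the 22898 gene names of an expression table of mouse testis. They were chosen by name and not by any measured value. The name does not show that each protein has ligase activity. Of the 144, 98 had a mean signal of at least 1 over both RNA libraries and are the expressed members below, and 46 did not reach that level.

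The study compared testis of 3-month-old males lacking Taf7l, an X-linked relative of the TFIID subunit gene Taf7, with testis of wild-type males of the same age. One RNA library was made per genotype, each from a pool of 6 extracts of Taf7l-/Y or wild-type testis. TAF7L and RNA polymerase II (Pol II) were immunoprecipitated from wild-type chromatin of the same age, in 1 library each, under a protocol that homogenised testes of 10 mice. A library of mixed mouse and rabbit IgG was not analysed here. No group had a replicate library, so there is no test across samples and no p-value is given. Where given, ± is the standard deviation in the authors' table, which can only describe technical variation within that single library.

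RING finger proteins bring a ubiquitin-conjugating enzyme to a substrate, and the substrate is thereby tagged with ubiquitin for degradation or for a change in its activity or location. TRIM proteins join the RING to B-box and coiled-coil domains and serve in antiviral defence, transcription control and organisation of the cytoskeleton. In the testis, ubiquitin ligases are known for the removal of histones, for acrosome formation and for the disposal of cytoplasm as spermatids become sperm.

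Each RNA library held 100000000 to 200000000 reads, per the labels. The targeted gene Taf7l had a signal of 2.04 ± 0.60 in the knockout library and 13.2 ± 1.56 in the wild-type library. The median log2 change of the 13127 gene names with a mean of at least 1 was 0.40, where the change is log2((knockout + 1)/(wild type + 1)). Of the markers listed for elongating spermatids 11 of 11 were lower by 2-fold or more, with summed signals of 12440 in the knockout and 68390 in the wild type. Those of round spermatids were lower in 7 of 10, with sums of 646 in the knockout and 1369 in the wild type. Pachytene spermatocyte markers had 1 of 10 higher and 1 lower, and spermatogonial markers 3 of 6 higher. At least 2-fold higher were also 8 of 14 Sertoli, 3 of 9 Leydig, 3 of 7 macrophage and leukocyte and 7 of 8 epididymal markers. Of all gene names 7.15% were higher and 7.08% lower by 2-fold or more. The epididymal list had 11 names, and 3 were left out at a mean under 1. All of its higher markers except Cd52 had wild-type signals under 1. They passed the filter only through the knockout, so that count was largely fixed by the filter. The 8 epididymal markers that passed summed to 368 in the knockout and 5.21 in the wild type, where Defb2 was listed at 0. Lcn5, also at 0 in the wild type, was among the 3 left out. In bulk testis fewer cells of a type and less RNA per cell cannot be told apart.

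The members together held nearly the same share of the signal in both libraries, while single members differed in both directions. All 144 members summed to 2658 in the knockout and 2753 in the wild type, which was 0.517% of the signal of all gene names in the knockout and 0.505% in the wild type. Of the 98 expressed members, the knockout had 4 that were higher by 2-fold or more (4.08%) and 8 that were lower by 2-fold or more (8.16%). Over all 13127 gene names the same shares were 7.15% and 7.08%, so the share of higher members was below the background and that of lower members close to it. Their median log2 change was 0.29, beside 0.40 for all gene names. With the knockout rescaled so that the median of all names was 0, by a factor of 0.71, 1 member was higher (1.02%) and 15 were lower (15.3%), beside 1.01% and 12.4% of all names. Multiplying the knockout signals in this way turned the members' median to -0.14. It left 2 of 14 Sertoli, 2 of 9 Leydig, 0 of 7 macrophage and leukocyte and 0 of 6 spermatogonial markers higher, and 2 Leydig markers were lower. Of the pachytene markers 0 of 10 were higher and 1 lower. Lower were 8 of 10 round and 11 of 11 elongating spermatid markers, and 7 of 8 epididymal markers were higher.

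The 8 lower members had a median signal of 32.3 in the knockout and 79.6 in the wild type, where Trim46 had the lowest signal (3.90) and Rnf151 the highest (379), while the 4 higher members had wild-type signals of 1.45 to 11.3. Of the 29 members whose mean reached 20, 6 were lower and none was higher, beside 14.5% lower and 7.09% higher among all names of that level. Of the 37 members with a mean of 5 to 20, 1 was lower (2.70%) and 3 were higher (8.11%), beside 6.19% lower and 10.2% higher among all names of that level. Of the 32 members with a mean of 1 to 5, 1 was lower and 1 higher (3.12% each), beside 2.53% lower and 4.39% higher among all names.

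**Figure D1:**
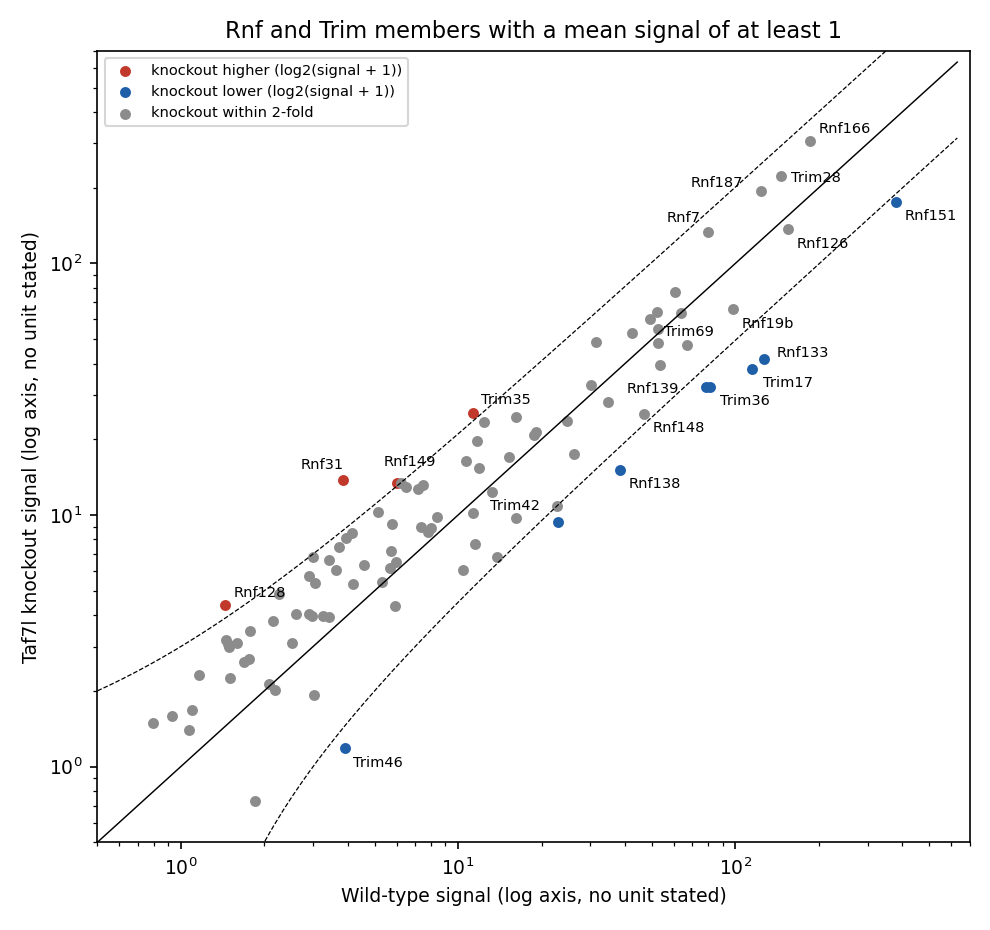
Signal of each of the 98 expressed members in the Taf7l knockout library (vertical, log axis) against the wild-type library (horizontal, log axis). The solid line marks equal signals and the dashed lines a 2-fold change after adding 1, and the 8 members below the lower dashed line include Rnf151, the member with the highest wild-type signal (176 in the knockout, 379 in the wild type).

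Ligases known from male germ cells held 5 of the 8 lower members. This list had 17 names in the table, of which 16 were expressed. Lower by 2-fold or more were 5 of the 16 (31.2%, beside 7.08% of all names) and none was higher, and the median change of the list was -0.60. The list is abundant, with a median wild-type signal of 49.8 beside 6.56 for all names. Among all names with a mean of at least 20, 14.5% were lower. Of the 5, Rnf138 also acts at DNA breaks and was placed in this list. After rescaling 7 of 16 were lower. The elongating spermatid markers were lower in 11 of 11 cases in the same libraries, as given above, and their part in this result was not tested. The list was written with results of these data known.

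Rnf151 encodes a testis RING protein that binds dysbindin and takes part in acrosome formation. Its signal was 176 ± 10.3 in the knockout and 379 ± 11.9 in the wild type, a log2 change of -1.10. It lies on chromosome 17 at 24852784 to 24855002 (mm9) and made up 6.62% of the summed member signal in the knockout and 13.8% in the wild type. Rnf133 and Rnf148 encode related testis proteins with a transmembrane segment and a protease-associated domain. Rnf133 had 41.6 ± 4.52 in the knockout and 127 ± 7.20 in the wild type, a log2 change of -1.59 and the lowest value of any member. Rnf148 had 25.3 ± 3.48 in the knockout and 46.9 ± 4.07 in the wild type, a change of -0.86 that did not reach 2-fold and did after rescaling. The pair lies on chromosome 6, Rnf133 at 23598868 to 23600305 and Rnf148 at 23603894 to 23605136 (mm9), with 3588 bases between them. Both lie within the span of 6 Cadps2 transcripts, whose highest signals were 0.24 in the knockout and 0.145 in the wild type.

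The promoter windows of these 3 genes are shown as examples of genes expressed in testis without an assigned TAF7L promoter score. Other expressed members also lack that score and are not shown. They are RefSeq windows on GRCm38.p6 around the gene start, on the minus strand for all 3, and capitals mark CCAAT or TGANGTCA on either strand (TGANGTCA covers TGACGTCA, the cyclic AMP response element).
Rnf151 (chr17:24718008-24718307): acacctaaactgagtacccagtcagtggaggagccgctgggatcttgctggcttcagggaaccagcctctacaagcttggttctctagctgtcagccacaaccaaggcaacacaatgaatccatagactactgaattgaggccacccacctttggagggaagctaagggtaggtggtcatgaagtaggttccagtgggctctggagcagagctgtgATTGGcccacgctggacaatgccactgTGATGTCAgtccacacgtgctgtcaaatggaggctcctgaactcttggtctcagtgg
Rnf148 (chr6:23655087-23655386): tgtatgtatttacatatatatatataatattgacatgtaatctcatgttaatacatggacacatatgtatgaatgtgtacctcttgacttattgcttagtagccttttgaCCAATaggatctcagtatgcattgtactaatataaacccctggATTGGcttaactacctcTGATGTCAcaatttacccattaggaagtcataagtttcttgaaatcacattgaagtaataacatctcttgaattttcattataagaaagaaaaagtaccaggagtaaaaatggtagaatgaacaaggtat
Rnf133 (chr6:23650256-23650555): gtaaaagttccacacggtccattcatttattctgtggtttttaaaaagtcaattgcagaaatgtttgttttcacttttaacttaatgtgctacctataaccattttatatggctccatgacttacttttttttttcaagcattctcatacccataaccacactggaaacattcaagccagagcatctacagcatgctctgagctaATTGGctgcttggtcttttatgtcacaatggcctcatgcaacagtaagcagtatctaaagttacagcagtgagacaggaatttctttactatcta
The windows held 3 CpG dinucleotides in Rnf151, 0 in Rnf148 and 1 in Rnf133. CCAAT occurred in all 3, and in 37.9% of the 27025 promoter windows of the RefSeq table. TGANGTCA occurred in Rnf151 and Rnf148, in both as TGATGTCA, and in 8.97% of all windows. The cyclic AMP response element TGACGTCA itself occurred in none of the 3. These motifs were chosen after the sequences were seen, and a match is a description, not a site.

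Trim17 and Trim36 were the lower TRIM members of the germ cell list. Trim17, first described as a testis RING finger gene, had 38.2 ± 2.50 in the knockout and 115 ± 4.76 in the wild type, a log2 change of -1.57. Its other transcript had 20.5 in the knockout and 55.8 in the wild type. Trim36, known in mouse as Haprin and linked to the acrosome reaction, had 32.4 ± 1.19 in the knockout and 80.7 ± 2.03 in the wild type (-1.29). The technical spreads of the 2 libraries did not overlap for either gene. Rnf138, a ligase that acts at DNA double-strand breaks, had 15.2 ± 0.81 in the knockout and 38.5 ± 1.22 in the wild type (-1.29), and each of its 3 transcripts was at least 2-fold lower. Trim42 lay just inside the line, with 10.9 ± 1.42 in the knockout and 22.7 ± 1.86 in the wild type (-0.99).

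Other members of the germ cell list were within 2-fold, and Trim69 had nearly equal signals. Trim69, a testis RING finger gene also known as Trif, had 63.5 ± 5.77 in the knockout and 63.7 ± 4.44 in the wild type. Trim37, whose human counterpart is mutated in mulibrey nanism, had 77.1 ± 2.18 in the knockout and 60.5 ± 1.90 in the wild type. Trim27, the Ret finger protein gene of male germ cells, had 48.2 in the knockout and 52.7 in the wild type. Rnf32 had 33.0 in the knockout and 30.2 in the wild type, and Rnf141 had 28.2 in the knockout and 34.8 in the wild type. Rnf113a2, an autosomal relative of the X-linked Rnf113a1, had 21.4 in the knockout and 19.0 in the wild type. Rnf19a, which encodes the ligase dorfin, had 47.5 ± 1.94 in the knockout and 66.7 ± 2.14 in the wild type (-0.48).

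Low members of the list included a regulator of meiotic crossovers and a heterochromatin factor of spermatids. Rnf212, which stabilises crossover sites in meiosis, had 2.69 ± 1.25 in the knockout and 1.76 ± 0.79 in the wild type. It was the only expressed member of the list above the median change of all genes, with 0.42 beside 0.40. Trim66, which encodes an HP1-binding protein of the TIF1 family, had 0.73 ± 0.13 in the knockout and 1.86 ± 0.17 in the wild type, a log2 change of -0.73 that adding 1 keeps within 2-fold. Trim71, the Lin41 gene of early germ cells, had 1.25 ± 0.31 in the knockout and 0.59 ± 0.17 in the wild type, with a mean under 1.

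**Figure D2:**
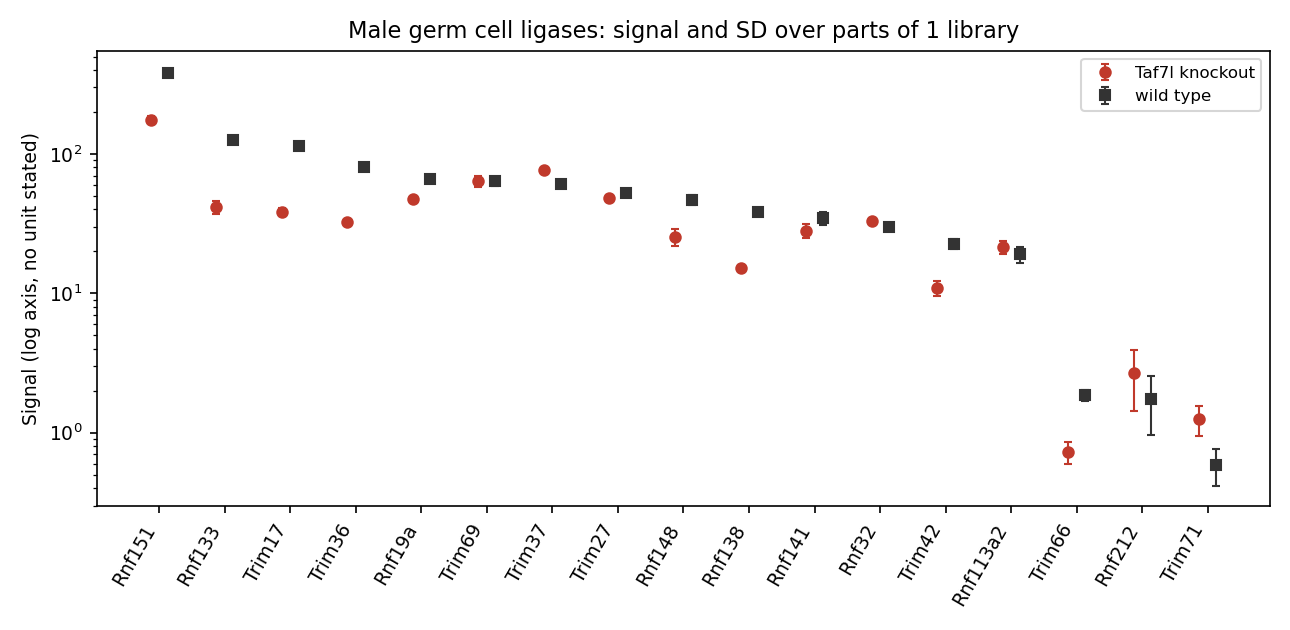
Signal (log axis) of the 17 male germ cell ligases in the Taf7l knockout library (circles) and the wild-type library (squares), ordered by wild-type signal, with bars for the standard deviation over parts of 1 library. Rnf133, Trim17, Trim36, Rnf138 and Trim66 are among those with wide gaps, while Trim69 had 63.5 in the knockout and 63.7 in the wild type. The axis shows signals without adding 1, and Trim66, at a low signal, was within 2-fold after adding 1.

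Rnf139 and Trim46 were at least 2-fold lower and stand outside the germ cell list. Rnf139, the TRC8 ligase of the endoplasmic reticulum with a sterol-sensing domain, had 32.3 ± 2.32 in the knockout and 78.5 ± 3.44 in the wild type, a log2 change of -1.26. Trim46, which bundles microtubules at the start of axons, had 1.18 ± 0.31 in the knockout and 3.90 ± 0.44 in the wild type (-1.17).

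Higher in the knockout were Rnf31, Rnf128, Trim35 and Rnf149. Rnf31, the catalytic subunit of the complex that builds linear ubiquitin chains, had 13.8 ± 8.89 in the knockout and 3.84 ± 4.65 in the wild type, a change of 1.61. That row spans 489 bases, and its technical spreads overlap. The longer transcript had 5.28 ± 0.93 in the knockout and 3.42 ± 0.60 in the wild type, a change of 0.51, so the call rests on the short row. Rnf128, known as GRAIL in T cell anergy, had 4.40 ± 1.01 in the knockout and 1.45 ± 0.48 in the wild type (1.14). Trim35 had 25.5 ± 1.62 in the knockout and 11.3 ± 1.20 in the wild type (1.10). Its shortest transcript had 8.755 in the knockout and 4.237 in the wild type (0.897), inside the 2-fold line after adding 1. The membrane ligase gene Rnf149 had 13.4 ± 1.59 in the knockout and 6.00 ± 0.92 in the wild type (1.04). Of the 4, Rnf31 alone was at least 2-fold higher after rescaling. Just inside the line were Trim26, with 13.5 in the knockout and 6.25 in the wild type (1.00 when rounded, under 1 as computed), and Trim47, with 6.84 in the knockout and 3.01 in the wild type (0.97).

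The list of protease-associated membrane ligases leaves out the testis genes Rnf133 and Rnf148, which have such a domain, were placed among the germ cell ligases and had lower signals in the knockout (-1.59 and -0.86). It also leaves out Znrf4 (-1.55), described below, whose name is outside the Rnf and Trim genes. The 6 expressed members of the list had changes above the median of all genes, from 0.49 in Rnf215 to 1.14 in Rnf128, and the median was 0.74. Rnf130, the mammalian relative of the fly gene goliath, had 8.50 ± 1.02 in the knockout and 4.15 ± 0.68 in the wild type. Rnf167 was the most abundant of them, with 24.4 ± 2.41 in the knockout and 16.1 ± 1.22 in the wild type. After rescaling none of the 6 was past 2-fold. Summed signals of the Sertoli markers were 2085 in the knockout and 993 in the wild type. Those of the macrophage and leukocyte markers were 106 in the knockout and 50.5 in the wild type. The 8 epididymal markers with a mean of at least 1 summed to 368 in the knockout and 5.21 in the wild type. Most of these 8 passed that filter only through the knockout, so the filter shaped their sum. The spermatogonial markers summed to 190 in the knockout and 119 in the wild type. Leydig markers summed to 1600 in the knockout and 1944 in the wild type, although 7 of 9 had a change above 0 and their median was 0.77. Insl3 alone had 1052 in the knockout and 1686 in the wild type. The part of these cells in the result was not tested.

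Chromatin and DNA repair ligases had no member past 2-fold after adding 1 among 10 expressed, and a median of 0.29. This count rests on the placement of Rnf138 (-1.29), which acts at DNA breaks, among the germ cell ligases, and the lists were drawn up with results known. Trim28, the corepressor KAP1 of retroelement silencing, was the most abundant, with 223 ± 8.95 in the knockout and 146 ± 4.18 in the wild type (0.61). Rnf2, the RING1B subunit of Polycomb complex PRC1, had 12.9 ± 1.14 in the knockout and 6.50 ± 0.70 in the wild type (0.89). Rnf20 and Rnf40, which form the ligase of histone H2B, differed in level. Rnf20 had 8.09 in the knockout and 3.96 in the wild type, and Rnf40 had 60.3 in the knockout and 49.1 in the wild type. The plain ratio of Rnf20 was 2.05, and it was called higher with a pseudocount of 0.1. Rnf4, which ubiquitinates SUMO-modified proteins, had 39.4 ± 3.33 in the knockout and 53.4 ± 3.32 in the wild type (-0.43), the lowest value of the list.

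The remaining lists stayed near the median of all genes or held few expressed members. Cytosolic signalling ligases had 1 of 20 lower, none higher and a median of 0.27. Their most abundant rows were Rnf166, with 307 ± 71.8 in the knockout and 186 ± 58.5 in the wild type on a row spanning 1206 bases, and Rnf187, with 193 ± 9.58 in the knockout and 124 ± 6.11 in the wild type. Rnf166 had 89.5 ± 4.88 in the knockout and 54.2 ± 3.74 in the wild type on its longer transcript, a change of 0.71 beside 0.72 on the short one. Rnf126, which handles mislocalised membrane proteins, had 137 ± 9.06 in the knockout and 155 ± 7.78 in the wild type. Rnf7, a RING subunit of cullin ligases, had 133 ± 8.04 in the knockout and 79.7 ± 6.44 in the wild type.

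Ligases of the endoplasmic reticulum and other membranes had 1 of 10 lower and a median of 0.13, and Rnf145 had their highest change (0.88), with 10.3 in the knockout and 5.14 in the wild type. In this list Rnf26 depended on the transcript. The chosen row had 6.78 ± 0.84 in the knockout and 13.8 ± 1.40 in the wild type (-0.93), whereas the row spanning 2272 bases had 7.48 ± 1.12 in the knockout and 7.24 ± 0.94 in the wild type. RING-between-RING ligases had 1 of 7 higher, Rnf31, and a median of 0.39. Rnf19b was their most abundant member, with 65.7 ± 2.50 in the knockout and 98.1 ± 2.58 in the wild type (-0.57).

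Immune TRIM genes were mostly below the level of 1. Of 17 listed names 5 were expressed, with changes of 0.58 in Trim11 to 1.00 in Trim26 and none past 2-fold after adding 1. The plain ratios of Trim25 (2.20) and Trim26 (2.15) were past 2-fold, and both were called higher with a pseudocount of 0.1. Trim25, a ligase of RIG-I signalling, had 3.20 ± 1.08 in the knockout and 1.46 ± 0.62 in the wild type, and Trim21, an antibody receptor of the cytosol, 0.42 in the knockout and 0.18 in the wild type. Trim5 and Trim12a have the same span on chromosome 7, and Trim12, Trim30 and Trim34 are older symbols of Trim12a, Trim30a and Trim34a in the RefSeq table, so these names are not separate genes in every case. All of them were under a mean of 1. Of the NHL, cytoskeletal and muscle TRIM genes 3 of 10 were expressed, among them Trim32 with 5.75 in the knockout and 2.89 in the wild type (0.80) and the muscle gene Trim54 with 15.3 in the knockout and 11.9 in the wild type. Trim31 was listed at 0 in both libraries.

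**Figure D3:**
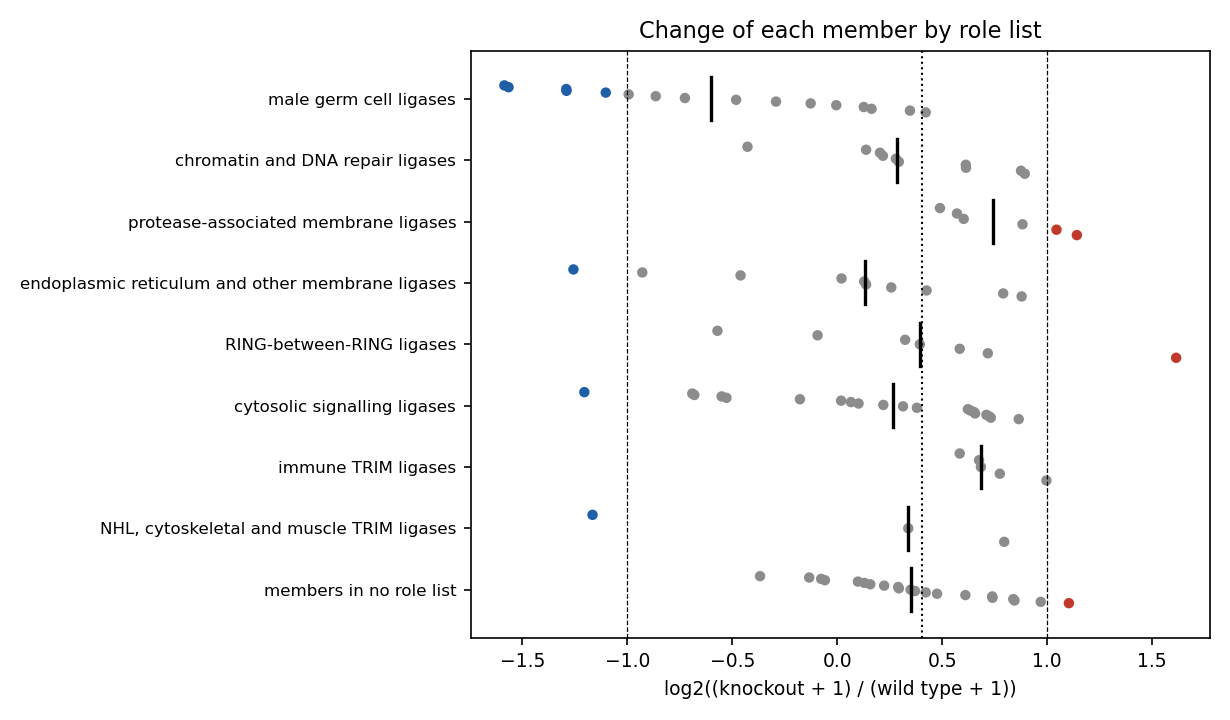
Log2 change of each expressed member, after adding 1, by role list. Short vertical bars mark list medians, the dotted line the median of all gene names (0.40) and the dashed lines 2-fold. The male germ cell ligases have a median of -0.60 and the protease-associated membrane ligases one of 0.74. Both medians depend on the lists, which were drawn up with results known. Rnf133 and Rnf148, which have a protease-associated domain and lower knockout signals, were placed in the germ cell list.

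RING ligases under other names were counted from a list drawn up by gene family. Of its 87 names 76 were found and 61 were expressed. Higher by 2-fold or more were 3 of the 61 (4.92%) and lower 2 (3.28%), beside 7.15% and 7.08% of all names, with a median of 0.48. The lower genes were Neurl1a, with 0.81 ± 0.21 in the knockout and 5.23 ± 0.50 in the wild type, and Znrf4, a testis ligase with a protease-associated domain, with 205 ± 18.1 in the knockout and 603 ± 39.4 in the wild type. Dtx1, a Notch pathway ligase, had 13.6 in the knockout and 5.53 in the wild type, and Ttc3 had 6.16 in the knockout and 2.29 in the wild type. Rbx1, a RING subunit of cullin ligases, had 42.8 in the knockout and 20.4 in the wild type. Ltn1, the ligase of stalled ribosomes, had 27.8 in the knockout and 41.1 in the wild type. The member Rnf160 is an older symbol of Ltn1 and its row, with 5.34 in the knockout and 4.18 in the wild type, has the opposite direction.

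Transcripts of 1 gene mostly moved together. Among 69 members with at least 2 transcripts of a mean of 1 or more, all such transcripts had the same direction in 65. Many of these transcripts overlap or have the same span, so their agreement is not independent support for a change. The 4 others were Rnf26, Rnf123, Rnf181 and Trim39. The changes ran from -0.02 to 0.02 over the transcripts of Rnf123 from -0.14 to 0.10 over those of Trim39 and from -0.41 to 0.06 over those of Rnf181.

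TAF7L and Pol II were assigned to the promoter class of most expressed members. A TAF7L promoter score above 0 was found in 59 of 98 members, 60.2% (95% Wilson interval 50.3 to 69.3, counting over genes only), and a Pol II score in 82, 83.7% (75.1 to 89.7). Of all expressed gene names 47.2% and 75.7% had such scores. The authors' files do not define these scores. Among members whose mean reached 20, 79.3% had a TAF7L promoter score, beside 60.8% of all names at that level, and among those with a mean of 1 to 5 34.4%, beside 33.5%. All 59 members with TAF7L also had a Pol II score, beside 99.5% of all names with TAF7L, and of the 39 without TAF7L 23 had one (59.0%), beside 54.4% of all names without it. In the TAF7L proximal class 31 members had a score (31.6%, all names 28.0%) and in the distal class 60 (61.2%, all names 49.8%). In 13 members (13.3%) TAF7L was 0 in all 3 classes, as in 24.3% of all names. Members with a TAF7L promoter score had median signals of 13.2 in the knockout and 11.3 in the wild type, and those without it 4.40 in the knockout and 3.84 in the wild type.

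The 8 highest TAF7L promoter scores belonged to genes of different roles. Rnf19a had 194, Trim41 173, Trim37 and Trim39 155 each, Rnf139 138, Rnf7 136, Rnf6 134 and Trim52 129. Their Pol II promoter scores ran from 523 in Rnf6 to 1540 in Trim52, and their log2 changes from -1.26 in Rnf139 to 0.86 in Rnf6. Across the 59 members with a TAF7L score, Spearman's rho was 0.374 between the TAF7L and Pol II scores and -0.031 between the TAF7L score and the log2 change. Over the 6198 gene names with a score these were 0.583 and -0.032. The genes share 1 library per antibody and are not independent replicates.

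Among the 8 lower members 5 had a TAF7L promoter score, 62.5%, as had 2 of the 4 higher members and 60.5% of those within 2-fold. Over all gene names these shares were 19.2% of the lower, 34.1% of the higher and 50.6% of the names within 2-fold. Among the lower members the score was 138 in Rnf139, 99.5 in Rnf138, 76.8 in Trim36 and 56.5 in Trim17. The other Trim36 transcript, with a change of -1.29, had a TAF7L promoter score of 0 and 76.8 in the distal class. Rnf151, Rnf133 and Trim46 had a TAF7L promoter score of 0. Rnf151 had TAF7L scores of 84.9 in the proximal and 76.0 in the distal class, and Pol II scores of 404 in the promoter and 1130 in the proximal class. Rnf133 and Rnf148 had 0 for both factors in all 3 classes, with wild-type signals of 127 and 46.9. Of the 59 members with a TAF7L promoter score 8.47% were lower by 2-fold or more, beside 2.89% of all names with one, and the members' share rests on 5 genes.

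**Figure D4:**
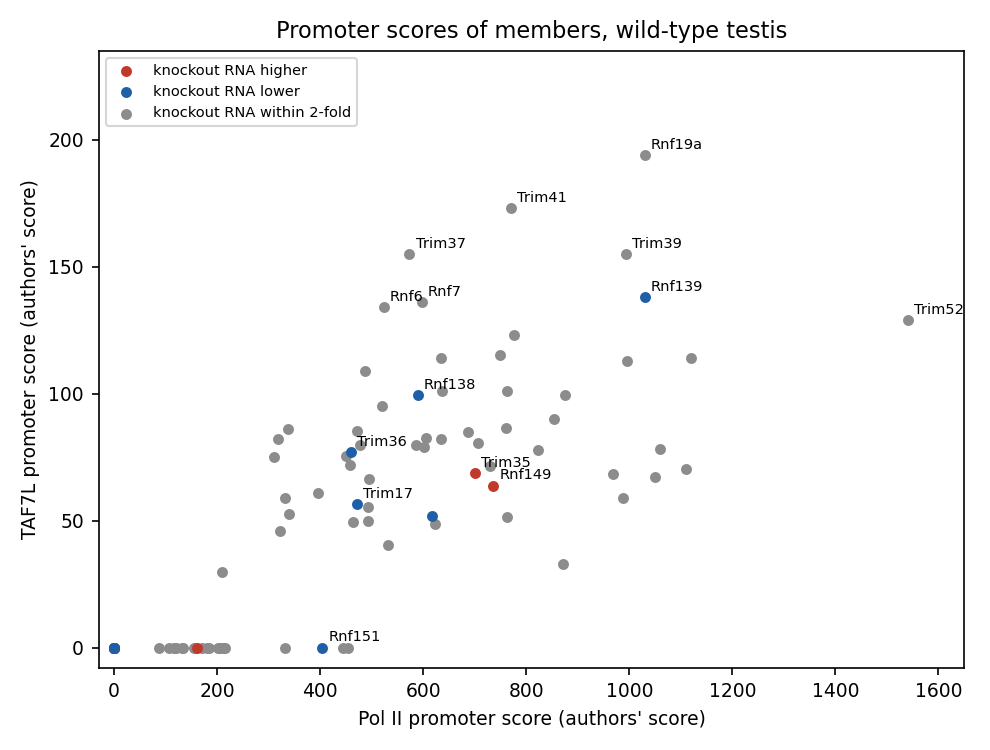
TAF7L promoter score (vertical) against Pol II promoter score (horizontal) of the 98 expressed members in wild-type testis, in the authors' units, coloured by the RNA change. Members with no TAF7L score lie on the bottom line, among them Rnf151 with a Pol II score of 404, and Rnf19a has the highest TAF7L score, 194.

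Promoter windows with a TAF7L score are shown for Trim37 and Trim41, which had high scores and no 2-fold change. Capitals mark GGGCGG, the GC box, on either strand, and Trim37 is on the plus and Trim41 on the minus strand of GRCm38.p6.
Trim37 (chr11:87126825-87127124): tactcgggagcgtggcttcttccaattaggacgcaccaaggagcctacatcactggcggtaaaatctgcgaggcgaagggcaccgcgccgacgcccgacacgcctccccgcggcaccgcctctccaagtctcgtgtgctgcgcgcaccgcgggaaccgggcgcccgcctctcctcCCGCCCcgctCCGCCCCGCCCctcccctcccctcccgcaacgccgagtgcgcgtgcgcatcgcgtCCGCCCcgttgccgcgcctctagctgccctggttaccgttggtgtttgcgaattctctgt
Trim41 (chr11:48817342-48817641): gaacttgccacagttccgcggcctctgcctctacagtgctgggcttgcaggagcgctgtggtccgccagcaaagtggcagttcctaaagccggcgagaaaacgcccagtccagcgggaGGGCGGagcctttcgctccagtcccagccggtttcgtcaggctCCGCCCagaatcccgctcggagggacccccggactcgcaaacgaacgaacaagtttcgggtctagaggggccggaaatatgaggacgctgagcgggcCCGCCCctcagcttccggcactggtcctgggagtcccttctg
These windows held 41 CpG dinucleotides in Trim37 and 25 in Trim41, against 0 to 3 in the 3 testis genes printed above. That contrast depends on which windows were picked for printing. Rnf167, with a TAF7L promoter score of 0, had 23 CpG, and Trim39, with a score of 155, had 8. RefSeq windows were matched for 79 of the 98 expressed members (80.6%), and the first window of each symbol was used, which need not be the start of the scored transcript. Of the lower members only Rnf151, Rnf133 and Trim46 had a window. No lower member with a TAF7L promoter score had one, so the windows cannot compare lower members with and without a score. CpG counts ran from 1 to 49 in members with a score and from 0 to 48 in those without. The 46 matched members with a TAF7L promoter score had a median of 24 CpG and the 33 without it a median of 17, beside 7 over all 27025 windows. GGGCGG occurred in 34 of the 46 (73.9%) and in 18 of the 33 (54.5%), beside 35.9% of all windows. Over all expressed gene names with a window the medians were 24 CpG with a TAF7L score and 16 without it, and GGGCGG occurred in 68.6% and 56.5%, so the members were close to the background on both. TGANGTCA occurred in 2 of the 46 members (4.35%) and in 6 of the 33 (18.2%), beside 7.69% and 8.98% of all such names. Rnf151 and Rnf148 are among the 6, and the motif was chosen after their windows were seen. The difference between these shares is therefore partly set by that choice, and nothing is concluded from it.

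**Figure D5:**
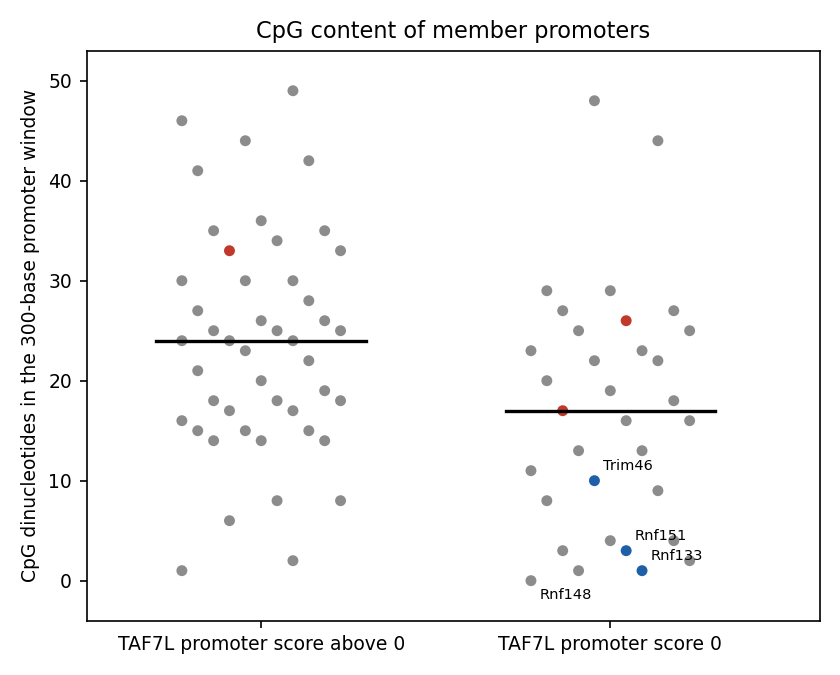
CpG dinucleotides in the RefSeq promoter window of each matched expressed member, with a TAF7L promoter score above 0 (left, 46 members) and at 0 (right, 33 members). Horizontal bars mark the medians of 24 and 17, and Rnf151, Rnf133 and Rnf148 lie at 3, 1 and 0. The lower members with a TAF7L promoter score had no matched window and are not shown.

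Neighbouring members did not always change together. On chromosome 11, Rnf187, Trim17 and Trim11 lie within 100 kb of each other (58745789 to 58804960, mm9). Trim17 was lower in the knockout (38.2 in the knockout, 115 in the wild type), while Rnf187 had 193 in the knockout and 124 in the wild type, and Trim11 had 16.4 in the knockout and 10.6 in the wild type. They share score values, such as 2000 for Pol II in the proximal class of Trim17 and in the distal class of Rnf187 and Trim11, and the strand is not stated. Trim41 and Trim7, 8745 bases apart, likewise share the TAF7L score of 173 and the Pol II score of 770. Those values are promoter scores of Trim41 and proximal scores of Trim7. Of 6 neighbouring pairs in which both members were expressed, 4 shared at least 1 equal score.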

How the data were processed

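The authors deposited an expression table with a mean signal and a standard deviation for each of 55350 transcripts in either genotype. They also deposited a table of binding scores for 55419 transcripts, split by antibody and by distance class. Per the file headers neither the signal nor the score has a stated unit or definition, and the signal is on the scale of RPKM. The submitters' processing notes name Bowtie, TopHat, Cufflinks and the build mm9, without versions in what was used here. Strand is not stated, so overlapping genes cannot be separated.

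Transcripts named only by a cDNA clone accession were left out (7541). The transcript with the highest mean stood for each name, 338 transcripts belonged to members, and scores were joined by accession. A name was called at 2-fold on log2(signal + 1) at a mean of at least 1. The members, the gene lists and the rule for named genes were chosen with earlier results of these data known. The rule took the 10 largest increases and decreases, the 8 highest wild-type signals and TAF7L promoter scores, the most abundant member and both extremes of each role list, members within 0.1 of a 2-fold line, all germ cell ligases, and of the other RING ligases the 3 largest changes each way. Trim7, Trim21, Trim25, Rnf40, Rnf123, Rnf160, Rnf181 and Rnf217 were named after their values were seen. The counting was tested on simulated data with raised signals and planted changes well past 2-fold. That test checks the code only and does not cover low signals or calls near the 2-fold line. Alternatives were another pseudocount, filter, scaling, transcript choice and score class. The values of 1 member are counted but not reported singly here. Python 3.11 was used.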

Additional observations from a re-analysis of the deposited data

How the results depend on the processing

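Counts of members past 2-fold depended on the pseudocount and the scaling. With a pseudocount of 0.1, 11 members were higher and 11 lower, and 9 other RING ligases were higher. Added to the higher members were Rnf20, Rnf130, Rnf217, Trim25, Trim26, Trim47 and Trim52, and to the lower ones Rnf26, Trim42 and Trim66. Rescaling the knockout to a median change of 0 left 1 member and 0 other RING ligases higher, gave 15 lower members, among them all 8 of the original ones, and reversed the members' median to -0.14. At a mean of at least 5 that median was 0.14, beside 0.34 for all names, and 1 other RING ligase was lower. The share of members with a TAF7L promoter score was 36.7% above the median score (23.5% of all names), 72.7% at a mean of at least 5 (55.6%), 42.0% with no filter (30.7%) and 86.7% over any class (75.7%). The Pol II share was 92.9% over any transcript (85.0% of all names), 56.1% above the median score (37.8%), 62.9% with no filter (53.7%) and 96.9% over any class (94.4%). With the longest transcript, chosen after seeing the data, Rnf31 was no longer higher. No paired analysis was possible because each group has 1 library. The technical spread relative to the signal was highest in the wild type for the 489-base row of Rnf31, at 1.21 times the signal, and its median over the expressed members was 0.108 in the wild type.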
